A study of Capra hircus with 3 samples.

Results

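Liver macrophages clear debris through scavenger receptors, which bind a wide range of ligands, and through receptors for phosphatidylserine, the lipid that dying cells expose. The genes described here were 5 such receptors and surface markers of Kupffer cells, the resident macrophages of the liver sinusoid: CD163, MARCO, MSR1, TIMD4 and ADGRE1. They were taken by gene symbol. Of the 27271 genes in the count matrices, 4 of the 5 were found by symbol (CD163, ENSCHIG00000015726; MSR1, ENSCHIG00000011250; TIMD4, ENSCHIG00000021237; ADGRE1, ENSCHIG00000021647), and MARCO was not analysed here.

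The samples were livers of female goats aged 3 to 4 years, profiled by droplet single-cell RNA sequencing of the 3′ ends of transcripts. NASH-T goats received the HRDS diet and formed the steatohepatitis tolerance group, NASH goats received the HRDS diet and had non-alcoholic steatohepatitis, and Con goats were healthy and received the LRDS diet. Each group was a single library made from the pooled cells of 5 livers. Effects of the group, of its pool and of its handling therefore cannot be told apart, and the spread between goats is unknown. All intervals are 95% intervals of counting error only, and no test was possible.

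CD163 takes up complexes of haemoglobin and haptoglobin and hands their haem to the macrophage for breakdown. MSR1 is a class A scavenger receptor that binds modified lipoproteins, bacterial surfaces and other charged ligands. TIMD4 binds phosphatidylserine on dying cells and, in mice, marks long-lived Kupffer cells; ADGRE1 is the adhesion G protein-coupled receptor known in mice as the F4/80 antigen.

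After filtering, NASH-T, NASH and Con held 8914, 8389 and 7200 cells with 27005297, 29059323 and 23752171 unique molecular identifiers (UMIs, each standing for 1 captured RNA molecule). Of the 25591 barcodes, 64 occurred in more than 1 library. Cells were clustered without the 5 receptor genes and named from other markers, so "-like" names do not rest on these genes. Macrophage-like cells numbered 1489, 1288 and 1376 in NASH-T, NASH and Con, and their median depth was 2754, 2285.5 and 2713.5 UMIs. All 14 measured macrophage markers were present in each library, and VSIG4, a complement receptor of Kupffer cells, stood at 742, 727 and 802 counts per 1000000 UMIs of the class (CPM).

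Counts of 3 of the 4 genes lay almost entirely in macrophage-like cells, and those of CD163 did not. Macrophage-like cells held 96.4%, 96.2% and 95.8% of all MSR1 UMIs in NASH-T, NASH and Con. They held 91.2%, 88.8% and 91.0% of TIMD4 UMIs and 97.7%, 97.3% and 96.6% of ADGRE1 UMIs. Of the CD163 UMIs they held only 12.8%, 9.25% and 25.6%, while hepatocyte-like cells held 82.8%, 82.9% and 68.7%.

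**Figure D1:**
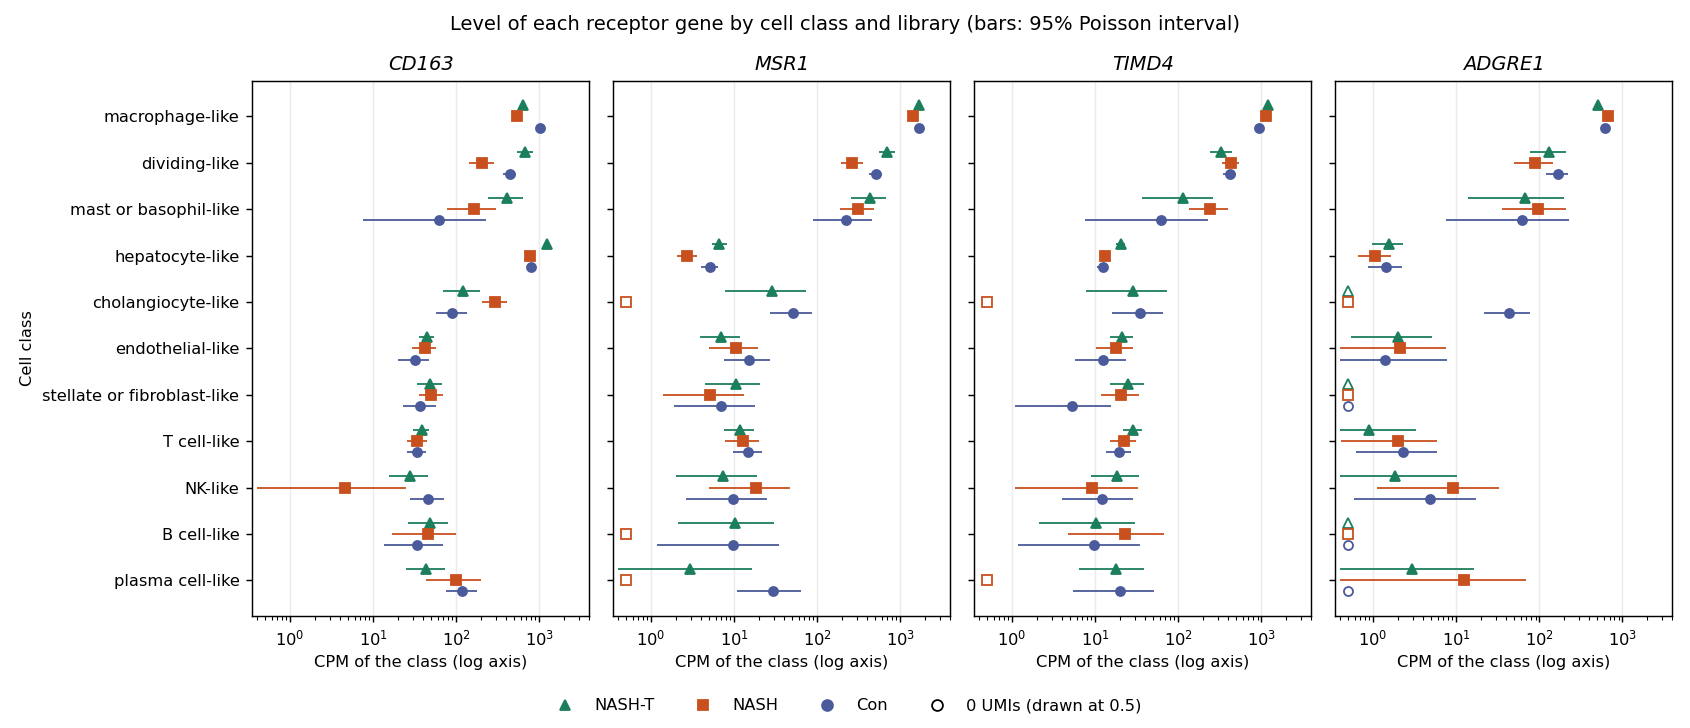
CPM of each receptor gene (log axis, with exact 95% Poisson intervals) by cell class in NASH-T, NASH and Con; open symbols mark 0 UMIs. MSR1, TIMD4 and ADGRE1 were highest in macrophage-like cells, while CD163 reached 1243 CPM in NASH-T hepatocyte-like cells, against 644 CPM in NASH-T macrophage-like cells.

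The classes with at least 50 cells in every library were macrophage-, endothelial-, stellate- or fibroblast-, B cell-, T cell-, NK- and hepatocyte-like cells. Over all libraries, MSR1 stood at 1607 CPM in macrophage-like cells (1584 to 1630) and at 13.003 CPM in T cell-like cells, the next of these classes, a 124-fold difference. TIMD4 stood at 1089 CPM against 23.8 CPM in T cell-like cells, 45.7-fold, and ADGRE1 at 588 CPM against 4.26 CPM in NK-like cells, 138-fold. Among 7920 genes ranked by their level in macrophage-like cells over the next class, with 1 CPM added to both, MSR1 was number 2, ADGRE1 number 3, TIMD4 number 8 and CD163 number 2330. Below macrophage-like cells, the levels of MSR1 in T cell-, NK-, endothelial-, B cell- and stellate- or fibroblast-like cells (7.60 to 13.003 CPM) had overlapping intervals. Hepatocyte-like cells came last for MSR1, with 4.63 CPM. For TIMD4 the remaining classes lay between 12.8 and 23.8 CPM. T cell-like cells (19.9 to 28.3 CPM) lay above hepatocyte-like cells (14.0 to 16.2 CPM), and the intervals of the other classes overlapped both. ADGRE1 had 0 UMIs in 1048 stellate- or fibroblast-like cells, which allows a share of up to 0.286% of cells with a UMI, and 0 in 415 B cell-like cells, which allows up to 0.723%. For CD163 hepatocyte-like cells stood above macrophage-like cells in NASH-T (1243 and 644 CPM) and NASH (780 and 534 CPM) and below them in Con (796 and 1033 CPM). The other classes lay between 29.8 and 46.1 CPM over all libraries, with overlapping intervals.

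In macrophage-like cells as a whole, CD163 was the only one of the 4 genes whose level differed between libraries by 1.5-fold or more. It stood at 644 CPM (621 to 668) in NASH-T, 534 CPM (509 to 560) in NASH and 1033 CPM (1002 to 1065) in Con, from 2882, 1721 and 4161 UMIs. The intervals of the 3 libraries did not overlap, and Con was the highest. The ratio was 0.516 (0.488 to 0.546) for NASH over Con and 0.623 (0.594 to 0.654) for NASH-T over Con. NASH-T over NASH was 1.21 (1.14 to 1.28), short of 1.5-fold. A UMI of CD163 was found in 55.5%, 46.0% and 68.7% of macrophage-like cells in NASH-T, NASH and Con. When each cell was thinned to 1000 UMIs, which left 1403, 1184 and 1286 cells, the shares were 36.6%, 31.9% and 50.6%. In T cell-like cells, a class that should lack the 4 genes and had a median of 1240.0, 1038.5 and 1179 UMIs, CD163 was found in 4.36%, 3.79% and 4.11% of cells. There the thinned shares of MSR1, TIMD4 and ADGRE1 lay between 0.0925% and 2.48%. The number of CD163 UMIs in the median cell was 1, 0 and 2, and 14.4%, 8.07% and 23.3% of cells held 5 or more.

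MSR1 stood at 1660 CPM (1623 to 1698) in NASH-T, 1426 CPM (1385 to 1468) in NASH and 1693 CPM (1653 to 1734) in Con. NASH was the lowest of the 3, and the intervals of NASH-T and Con overlapped. The ratio was 0.842 (0.811 to 0.875) for NASH over Con, 0.981 (0.949 to 1.01) for NASH-T over Con and 1.16 (1.12 to 1.21) for NASH-T over NASH. MSR1 was found in 82.8%, 76.4% and 80.2% of macrophage-like cells in NASH-T, NASH and Con, and in 68.8%, 63.7% and 69.1% after thinning.

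TIMD4 stood at 1202 CPM (1170 to 1235) in NASH-T, 1125 CPM (1089 to 1163) in NASH and 933 CPM (903 to 963) in Con. Con was the lowest, the reverse of CD163. The ratio was 1.21 (1.15 to 1.26) for NASH over Con, 1.29 (1.24 to 1.34) for NASH-T over Con and 1.07 (1.02 to 1.11) for NASH-T over NASH. A UMI was found in 74.4%, 68.8% and 66.2% of cells, and in 56.8%, 53.3% and 46.2% after thinning.

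ADGRE1 stood at 508 CPM (487 to 529) in NASH-T, 661 CPM (634 to 690) in NASH and 620 CPM (596 to 645) in Con. NASH-T was the lowest, with no overlap with the other libraries. The ratio was 0.819 (0.773 to 0.867) for NASH-T over Con and 0.767 (0.723 to 0.815) for NASH-T over NASH. NASH over Con was 1.07 (1.01 to 1.13), and it was 0.923 when each library was clustered on its own. The shares of cells with a UMI were 58.6%, 59.6% and 60.0% in NASH-T, NASH and Con, and 34.4%, 40.8% and 39.0% after thinning.

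**Figure D2:**
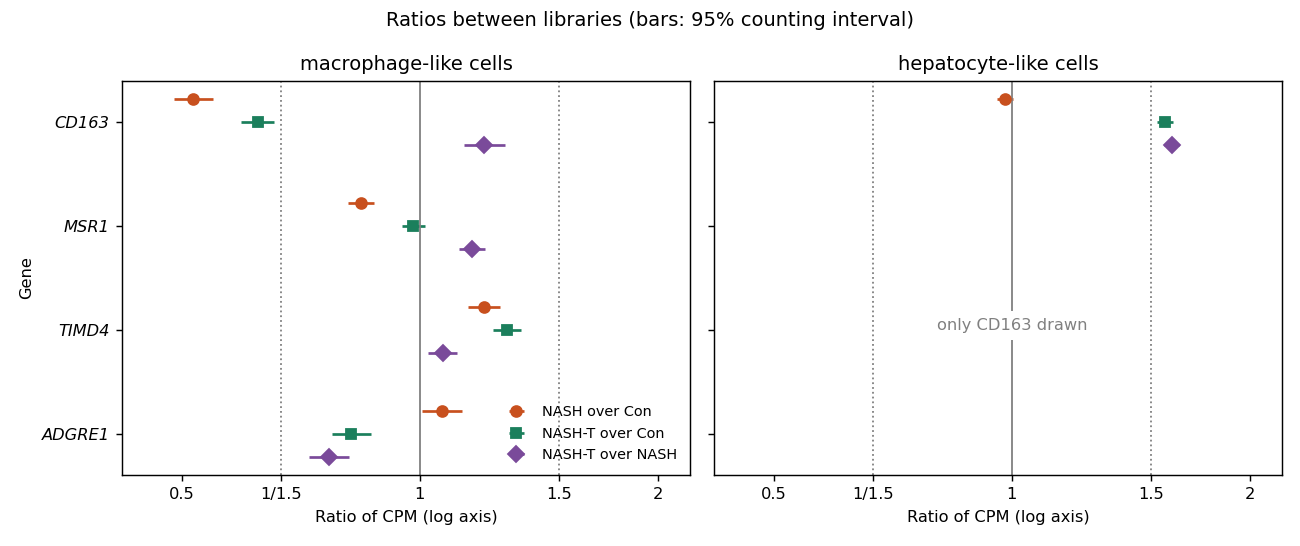
Ratios of CPM between libraries (log axis, with 95% intervals of counting error) in macrophage-like cells for the 4 genes and in hepatocyte-like cells for CD163; dotted lines mark 1.5-fold. CD163 was at 0.516 (NASH over Con) and 0.623 (NASH-T over Con) in macrophage-like cells, and at 1.56 for NASH-T over Con in hepatocyte-like cells.

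Genes were counted as higher or lower when the ratio was at least 1.5-fold, its interval excluded 1 and both libraries together held at least 20 UMIs. By this rule 1 of the 4 receptor genes, CD163, was lower in NASH than in Con and 0 were higher, where 4.63% of the 10469 genes measured in macrophage-like cells were lower and 3.54% higher. In NASH-T over Con, 1 of 4 was lower, again CD163, and 0 were higher, beside 6.15% lower and 3.32% higher of 10736 genes. In NASH-T over NASH, 0 of 4 passed in either direction, beside 9.51% of 10525 genes. The 2 comparisons with Con share the Con library. The median log2 ratio of the 4 genes was −0.08, −0.16 and 0.16 in these comparisons, beside −0.01, −0.02 and −0.02 over all measured genes.

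The macrophage-like and plasmacytoid dendritic-like cells fell into 11 subsets, again found without the receptor genes and described here by their leading genes. In 6 of them (subsets 0, 1, 2, 5, 6 and 7), over all libraries, MSR1 stood between 1567 and 2000 CPM, TIMD4 between 909 and 1451 CPM and ADGRE1 between 544 and 885 CPM. Subset 3, led by GPNMB (a gene of lipid-laden macrophages), GLDN, MCOLN3 and CPM, held less TIMD4, with 394 CPM, less ADGRE1, with 319 CPM, and less MSR1, with 1173 CPM. Its CD163 level differed by library. In NASH it stood at 227 CPM, below all 6 of those subsets in the same library (458 to 826 CPM). In NASH-T it stood at 404 CPM (340 to 476), at the low end of those subsets (408 to 1722 CPM, the highest from 6 cells). Its interval there overlapped those of subsets 1 and 6. In Con it stood at 1173 CPM, inside their range (669 to 1330.5 CPM). Subset 4, led by CREB5 and ARHGAP20, held the least ADGRE1, with 21.7 CPM, and had 309 CPM of MSR1, 352 CPM of TIMD4 and 288 CPM of CD163. Of the other Kupffer genes there, VSIG4 stood at 729 CPM, inside the range of the 6 subsets (643 to 865 CPM), while NR1H3, a nuclear receptor of Kupffer cells, stood at 30.2 CPM, HMOX1 at 77.4 CPM, SLC40A1 at 1078 CPM and MERTK at 531 CPM, each below all 6. FLT3, a receptor of dendritic cells and their precursors, stood at 149.98 CPM in subset 4. Of the 12 dendritic cell genes in the matrices, only 3 were at least 2-fold above the other subsets there. In subset 9, led by CYFIP2 and GHR, 4 were. Subset 4 is therefore not named from FLT3. Subset 10, led by MMP16 and BCL11A and mostly the plasmacytoid dendritic-like cluster, had the lowest CD163, MSR1 and TIMD4, with 114, 236 and 206 CPM from 44 cells. These levels are descriptions of cells that were grouped by their whole profile.

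**Figure D3:**
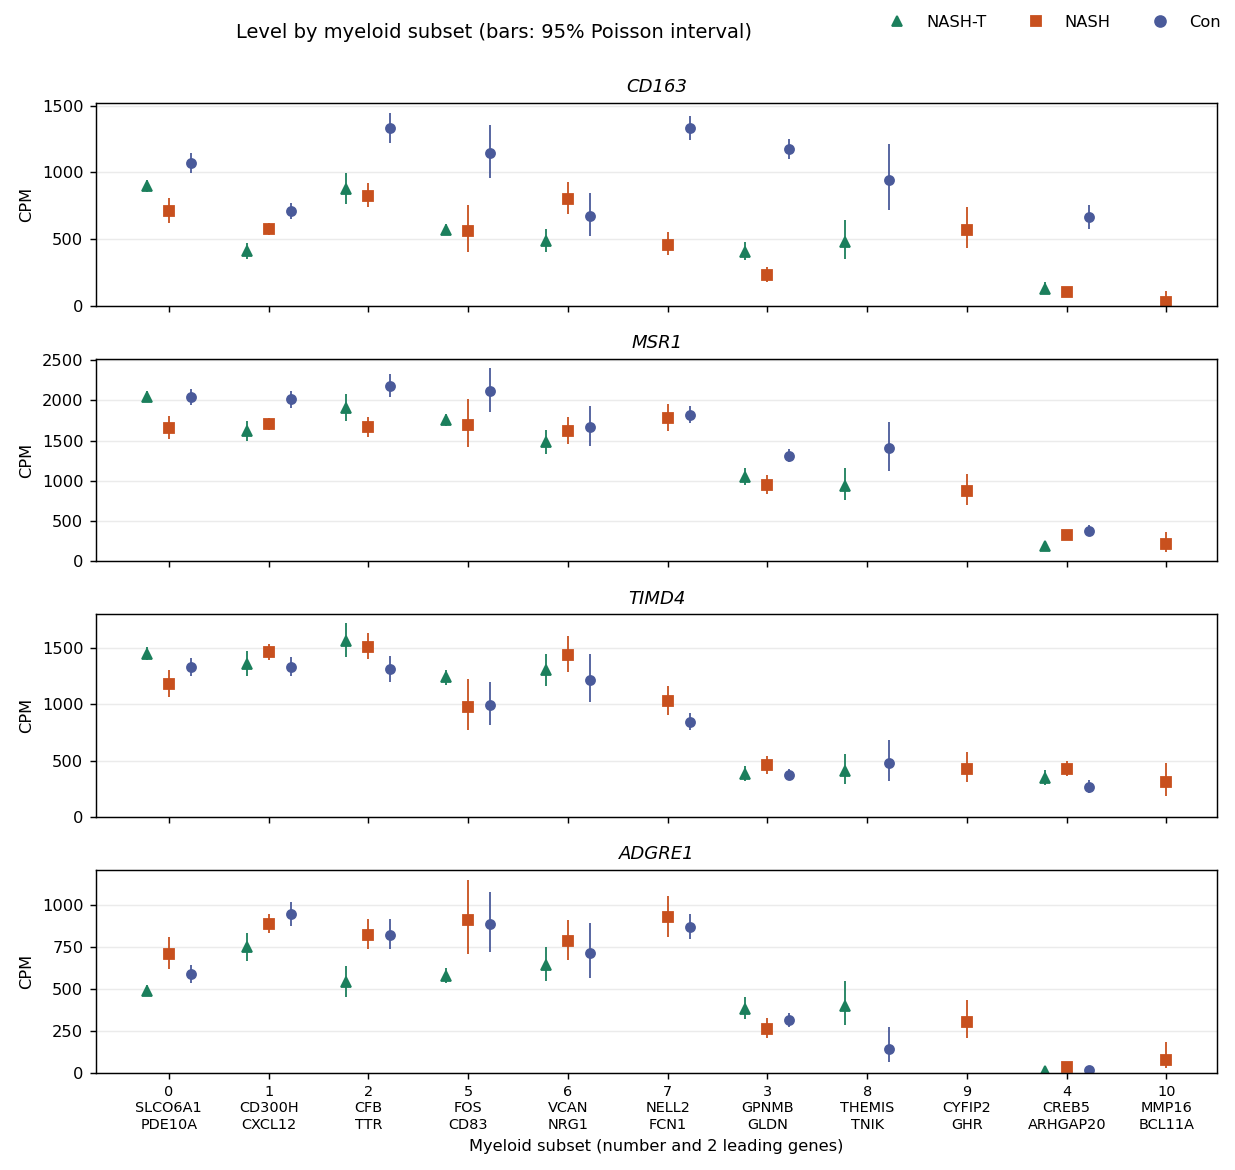
CPM (with exact 95% Poisson intervals) of the 4 genes in each myeloid subset with at least 20 cells in a library, in NASH-T, NASH and Con. ADGRE1 was near 0 in subset 4 (21.7 CPM over all libraries), and CD163 was higher in Con than in NASH-T and NASH in subsets 0 to 5. In subset 6 the CD163 intervals of NASH and Con overlapped.

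The subsets made up different shares of the macrophage-like cells of each library. Subset 5, led by the immediate early gene FOS with CD83, SRGN and DUSP1, held 23.6%, 2.33% and 2.69% of them in NASH-T, NASH and Con. Subset 0, led by SLCO6A1 and PDE10A, held 29.5%, 7.07% and 16.0%, and subset 1, led by CD300H and CXCL12, held 8.80%, 27.7% and 17.3%. Subset 3 held 6.98%, 9.78% and 19.8%, and subset 7, led by NELL2 and the monocyte lectin gene FCN1, held 0.403%, 5.98% and 11.8%. With subset shares fixed at those of the pooled cells, CD163 ratios were 0.548 for NASH over Con and 0.664 for NASH-T over Con.

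The class joined 2 clusters, and they differed in size of change. Cluster 1 held 82.7%, 75.8% and 69.3% of macrophage-like cells in NASH-T, NASH and Con, and its CD163 stood at 715, 635 and 1015 CPM. The ratio there was 0.626 (0.588 to 0.665) for NASH over Con and 0.704 (0.668 to 0.742) for NASH-T over Con, which is short of 1.5-fold. Cluster 7, led by the genes GPNMB, GLDN and CPM (carboxypeptidase M), had 265, 166 and 1078 CPM, with ratios of 0.154 (0.126 to 0.187) and 0.246 (0.209 to 0.287). The other genes also differed between the clusters. In cluster 7, MSR1 stood at 656, 447 and 1024 CPM in NASH-T, NASH and Con, and ADGRE1 at 246, 86.0 and 203 CPM. ADGRE1 for NASH-T over NASH was 0.678 (0.638 to 0.721) in cluster 1 and 2.86 (2.12 to 3.91) in cluster 7.

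Within subsets, 7 had at least 20 cells in every library (subsets 0 to 6). CD163 was below 1 for NASH-T over Con in 7 of 7, with every interval below 1 and ratios between 0.194 and 0.841. For NASH over Con it was below 1 in 6 of 7, with ratios between 0.152 and 1.20025. The exception was subset 6, led by VCAN and NRG1, with 484 CPM in NASH-T, 803 CPM in NASH and 669 CPM in Con. The intervals of NASH (689 to 931 CPM) and Con (524 to 843 CPM) overlapped there. Subset 4 had 129, 101 and 662 CPM in NASH-T, NASH and Con, and subset 3 had 404, 227 and 1173 CPM. These 2 subsets had the lowest ratios to Con. MSR1 was below 1 for NASH over Con in 7 of 7 subsets (0.726 to 0.966), with the interval below 1 in 5. For NASH-T over Con, MSR1 was below 1 in 6 of 7 (0.506 to 1.001), also with the interval below 1 in 5. TIMD4 was above 1 for NASH-T over Con in 7 of 7 (1.01 to 1.31), with the interval above 1 in 3. ADGRE1 for NASH-T over NASH was below 1 in 6 of 7, with the interval below 1 in 4, and above 1 in subset 3 (1.46, 1.09 to 1.96).

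Single macrophage-like cells often held several of the receptor transcripts at once. After thinning to 1000 UMIs, all 4 genes were found in 7.48%, 8.87% and 9.18% of cells in NASH-T, NASH and Con, and none in 10.0%, 15.6% and 9.95%. The share with none was highest in NASH, where the interval (13.6% to 17.8%) lay above those of NASH-T (8.53% to 11.7%) and Con (8.37% to 11.7%). MSR1 was found in 80.7%, 76.5% and 75.6% of cells with CD163 in NASH-T, NASH and Con, against 61.9%, 57.7% and 62.4% of cells without it. TIMD4 was found in 60.4%, 60.5% and 51.6% of cells with MSR1, against 48.9%, 40.7% and 34.2% of cells without it. For all 6 pairs of genes in all 3 libraries, a gene was found more often in cells holding the other than in cells lacking it. The narrowest gap was between CD163 and ADGRE1 in Con, with ADGRE1 in 39.9% of cells with CD163 and 38.1% without.

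**Figure D4:**
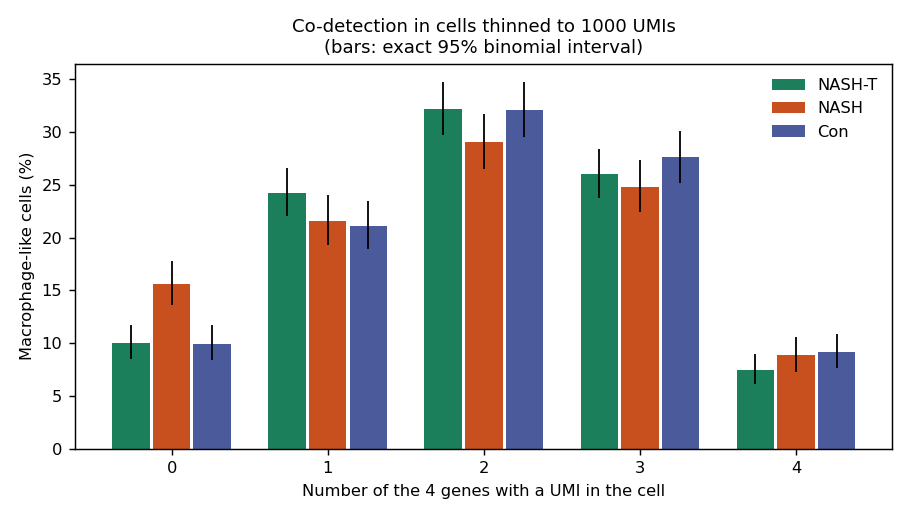
Share of macrophage-like cells, thinned to 1000 UMIs, in which 0 to 4 of the receptor genes had a UMI, in NASH-T, NASH and Con, with exact 95% binomial intervals. In each library the most common number of genes was 2 (32.2%, 29.1% and 32.1%), and cells with none were most common in NASH (15.6%).

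In hepatocyte-like cells CD163 stood at 193% of its level in macrophage-like cells in NASH-T, 146% in NASH and 77.0% in Con. It was counted at 1243 CPM (1225 to 1261) in NASH-T, 780 CPM (768 to 793) in NASH and 796 CPM (781 to 811) in Con, from 18643, 15436 and 11182 UMIs. NASH-T was the highest, and the intervals of NASH and Con overlapped. A CD163 UMI was found in 88.1%, 86.2% and 84.3% of the 3111, 4059 and 2855 hepatocyte-like cells, and in 61.2%, 52.0% and 51.0% after thinning. Their median depth was 4035, 3863 and 4200.0 UMIs. T cell-like cells gave 38.3, 34.2 and 33.7 CPM and, after thinning, 2.68%, 3.80% and 3.15% of cells.

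Other values stand beside this one. T cell-like cells carried 4864, 4472 and 4090 CPM of 14 hepatocyte markers in NASH-T, NASH and Con, against 25130, 22023 and 20081 CPM in hepatocyte-like cells and 2436, 2403 and 2121 CPM in macrophage-like cells. CD163 made up 97.8% of the UMIs of the 4 receptor genes in hepatocyte-like cells, 48.1% in T cell-like cells and 18.5% in macrophage-like cells. Thinned hepatocyte-like cells with a UMI of any receptor gene held 0.411, 0.286 and 0.372 macrophage marker UMIs per cell in NASH-T, NASH and Con, against 0.403, 0.327 and 0.382 in those without. In NASH and Con the cells with a receptor UMI held fewer of them, and in NASH-T slightly more. MSR1 in hepatocyte-like cells stood at 6.67, 2.73 and 5.13 CPM, below the 11.7, 12.7 and 14.9 CPM of T cell-like cells, and TIMD4 at 20.3, 13.1 and 12.3 CPM, also below T cell-like cells (28.4, 22.1 and 19.4 CPM). ADGRE1 stood at 1.53, 1.06 and 1.42 CPM, and T cell-like cells had 0.902, 2.01 and 2.29 CPM of it. These 3 genes were read as background there. CD163 belongs to a family of cysteine-rich scavenger receptors that in ruminants includes the WC1 genes of γδ T cells. How reads were divided between such relatives, and where in the gene the CD163 reads lie, was not analysed here.

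The ratio of CD163 in hepatocyte-like cells was 1.56 (1.53 to 1.60) for NASH-T over Con and 1.59 (1.56 to 1.63) for NASH-T over NASH, and 0.980 (0.956 to 1.00) for NASH over Con. In these comparisons 4.53%, 7.94% and 5.21% of the genes measured in that class were higher. Among the genes read as background, MSR1 had a ratio of 0.532 for NASH over Con, beside 11.1% of measured genes lower, and TIMD4 one of 1.65 for NASH-T over Con. For NASH-T over NASH, MSR1 had a ratio of 2.44 (1.74 to 3.47) and TIMD4 one of 1.55 (1.31 to 1.83), from 100 and 54 UMIs of MSR1 and 304 and 259 UMIs of TIMD4. For NASH-T over Con the direction in hepatocyte-like cells was thus opposite to that in macrophage-like cells, and this difference was not tested. It held within the 3 hepatocyte-like clusters that were well filled in every library. In cluster 0, led by HAL (the first enzyme of histidine breakdown) and PDK4, CD163 stood at 1203, 702 and 804 CPM in NASH-T, NASH and Con. In cluster 2, led by FMO1 and LGR5 (a Wnt target of hepatocytes near the central vein), it stood at 1302, 686 and 794 CPM, and in cluster 11, led by APOE and APOA2, at 1180, 582 and 683 CPM. NASH-T over Con was 1.498, 1.639 and 1.728 in these clusters, and NASH over Con 0.874, 0.864 and 0.852. Clusters 4 and 6 were mostly NASH cells (1756 of 1818 and 1010 of 1032), where CD163 stood at 849 and 764 CPM.

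**Figure D5:**
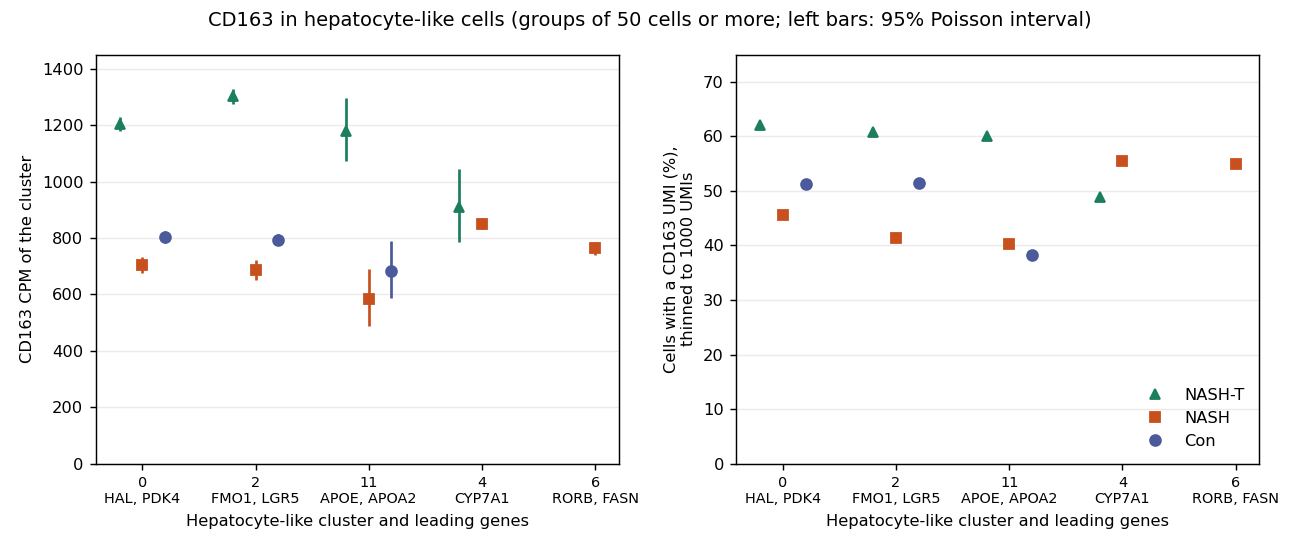
CD163 in hepatocyte-like clusters by library: CPM with exact 95% Poisson intervals (left) and the share of cells with a UMI after thinning to 1000 UMIs (right). NASH-T lay above NASH and Con in clusters 0, 2 and 11 (1203, 1302 and 1180 CPM in NASH-T).

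In endothelial-like cells none of the 4 genes stood clear of background. Scavenger receptors are also a hallmark of sinusoidal endothelium, though of other genes such as STAB2. CD163 stood at 44.2, 41.7 and 31.8 CPM in NASH-T, NASH and Con, MSR1 at 7.03, 10.4 and 15.2 CPM, TIMD4 at 21.1, 17.7 and 12.5 CPM and ADGRE1 at 2.01, 2.08 and 1.38 CPM. Each interval overlapped that of T cell-like cells of the same library. The median depth was 1676, 1421.5 and 1692 UMIs per endothelial-like cell. After thinning, 7.07%, 5.62% and 3.22% of endothelial-like cells held a UMI of any of the 4 genes, against 6.01%, 8.03% and 6.64% of T cell-like cells. Of the 3 genes with at least 20 UMIs over both libraries, 0 were past 1.5-fold in any comparison, beside 10.4% of measured genes in NASH over Con, 10.1% in NASH-T over Con and 8.82% in NASH-T over NASH. In stellate- or fibroblast-like cells TIMD4 had 19, 16 and 3 UMIs, or 24.9, 20.7 and 5.28 CPM, no higher than in T cell-like cells.

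Smaller classes held more of these transcripts. The 129 dividing-like cells, a class that joins dividing cells of any lineage, held 678, 205 and 445 CPM of CD163 and 693, 264 and 504 CPM of MSR1 in NASH-T, NASH and Con. The 81 mast- or basophil-like cells held 428, 309 and 219 CPM of MSR1, from 19, 19 and 7 UMIs. Whether some of these barcodes held a macrophage beside another cell was not tested.

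The genes whose level followed each receptor most closely were named from 21 points (7 classes in 3 libraries, as log2 of CPM plus 10), which share libraries and depth and are given as a description. For MSR1 they were CYP2S1 (Pearson r = 0.993), ADGRE1, VSIG4, RGS20 and CSF1R, the receptor of the macrophage growth factor CSF1. For ADGRE1 they were VSIG4 (r = 0.996), PCSK1, MSR1, CYP2S1 and RGS20. For TIMD4 they were CLEC4F (r = 0.988), a lectin of mouse Kupffer cells, then FAM167A, ANKRD22, IL1B and RGS20. For CD163 they were REPIN1 (r = 0.968), the organic anion transporter gene SLCO2B1, C1RL, RBM47 and SYCP2L, and none of these was shared with the other 3 receptors.

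Of the other scavenger receptors in macrophage-like cells, 1 was higher and 4 were lower of 14 measured in NASH over Con, with a median log2 ratio of −0.20, beside 4.63% of all measured genes lower and 3.54% higher. CD36, a fatty acid and oxidised lipoprotein receptor, stood at 57.7 CPM in NASH, against 249 CPM in Con (ratio 0.231, 0.197 to 0.271). CD36 was also among the leading genes of subset 3, which held 6.98%, 9.78% and 19.8% of macrophage-like cells in NASH-T, NASH and Con. The part of that subset in the CD36 levels was not tested. OLR1, another oxidised lipoprotein receptor, had a ratio of 0.268, the collectin receptor COLEC12 0.464, and STAB2 2.38 from 21 and 11 UMIs. STAB2 is also a marker of endothelial-like cells, and the source of these UMIs was not tested. In NASH-T over Con, 0 were higher and 6 lower of 14, with a median of −0.27, beside 6.15% of all measured genes lower. CD36 stood at 40.2 CPM in NASH-T (0.161, 0.137 to 0.189), and COLEC12 had a ratio of 0.383, OLR1 0.497 and MEGF10, a receptor for apoptotic cells, 0.504. In NASH-T over NASH, 1 was higher (OLR1, 1.86) and 1 lower (MEGF10, 0.411), with a median of −0.18. Beside these, 4.12% of all measured genes were higher and 5.39% lower. MRC1, the mannose receptor, stood at 1386, 982 and 1085 CPM in NASH-T, NASH and Con.

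Few other phosphatidylserine receptors and bridging proteins passed the fold. The shares of all genes measured in macrophage-like cells stand beside this list and each list below. They were 3.54% higher and 4.63% lower in NASH over Con, and 3.32% and 6.15% in NASH-T over Con. In NASH-T over NASH they were 4.12% and 5.39%. Lists this short cannot tell a count of 1 from these shares. In NASH over Con 1 was higher (STAB2, also an endothelial marker) and 1 lower of 12, the lower one being CD300LB (0.614), with a median of −0.13. In NASH-T over Con 0 were higher and 1 was lower, CD300LB (0.610), with a median of −0.08, and in NASH-T over NASH 0 of 12 passed in either direction, with a median of 0.02. MERTK, a receptor kinase that engages dying cells through bridging proteins, stood at 1359, 1238 and 1323 CPM in NASH-T, NASH and Con, AXL at 192, 197 and 196 CPM and HAVCR2, a relative of TIMD4, at 246, 238 and 265 CPM. Of the engulfment machinery, 0 of 15 passed in NASH over Con (median 0.03). In NASH-T, DOCK1, which activates Rac during engulfment, and MEGF10 were lower than in Con (0.456 and 0.504; 0 higher and 2 lower of 16, median 0.03) and lower than in NASH (0.384 and 0.411; 0 higher and 2 lower of 16, median 0.05).

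Among genes of haem and iron handling downstream of CD163, 0 were higher and 2 lower of 13 in NASH over Con, with a median of −0.16. They were SLC11A1, an endosomal metal transporter (0.584), and FTH1, the ferritin heavy chain (0.660). In NASH-T over Con, 0 were higher and 1 lower, SLC11A1 (0.547), with a median of −0.01, and in NASH-T over NASH 0 of 13 passed, with a median of 0.24. HMOX1, the haem oxygenase that opens the haem ring, stood at 430, 342 and 464 CPM in NASH-T, NASH and Con, and the iron exporter gene SLC40A1 at 3771, 3029 and 3447 CPM.

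A list around the shedding and induction of CD163 also held FKBP5, itself a target of the glucocorticoid receptor. FKBP5 was lower in both HRDS groups. It stood at 81.6, 65.7 and 199.7 CPM in macrophage-like cells of NASH-T, NASH and Con, with a ratio of 0.329 (0.282 to 0.384) for NASH over Con and 0.409 (0.360 to 0.463) for NASH-T over Con. FKBP5 is induced by the glucocorticoid receptor, as CD163 is in human monocytes. A part of that receptor in the CD163 levels was not tested. FKBP5 was also highest in Con in the other classes read, with 366, 337 and 479 CPM in T cell-like, 57.3, 92.8 and 183 CPM in endothelial-like and 20.8, 19.3 and 51.6 CPM in hepatocyte-like cells of NASH-T, NASH and Con. TSC22D3, another glucocorticoid target, stood at 34.4, 24.8 and 33.5 CPM in macrophage-like cells, the receptor gene NR3C1 at 1132, 1083 and 966 CPM, and the sheddase gene ADAM17 at 221, 220 and 215 CPM. Of the whole list, 0 were higher and 1 lower of 12 in NASH over Con (median 0.02). In NASH-T over Con 2 were higher and 1 lower (median 0.08), and in NASH-T over NASH 1 was higher and 0 lower (median 0.09). The higher ones were TIMP3, an inhibitor of ADAM17 (1.71 and 1.70 over Con and NASH), and IL10, which induces CD163 in human monocytes (1.67 over Con).

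Other adhesion G protein-coupled receptors had few counts. Of these, 3 were higher and 1 lower of 9 in NASH over Con (median 0.26), beside 3.54% and 4.63% of all measured genes. In NASH-T over Con 3 were higher and 3 lower of 10 (median −0.22), beside 3.32% and 6.15%. In NASH-T over NASH 0 were higher and 3 lower of 9 (median −0.55), beside 4.12% and 5.39%. ADGRE3, the closest in name to ADGRE1, had 28, 32 and 12 UMIs in NASH-T, NASH and Con (3.33 for NASH over Con and 2.10 for NASH-T over Con).

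Other Kupffer identity genes gave 0 of 17 past the fold in NASH over Con (median −0.09), 2 higher (LYVE1, 1.97, and ID3, 1.75) and 1 lower (C6, 0.503) in NASH-T over Con (median 0.04), and 1 higher (LYVE1, 2.10) and 1 lower (C6, 0.326) in NASH-T over NASH (median 0.09). LYVE1 is also an endothelial marker, and the source of its UMIs was not tested. The 14 endothelial markers, LYVE1 among them, summed to 853, 794 and 656 CPM in macrophage-like cells of NASH-T, NASH and Con. Kupffer transcription factors gave 0 of 16 in NASH over Con (median 0.12), and 3 higher and 0 lower in NASH-T over Con (median 0.16): ID1 (3.46), ID3 and CEBPB (1.70). In NASH-T over NASH, ID1 alone was higher (2.92), with 0 lower (median 0.05). Niche signals gave 1 lower of 11 in NASH over Con (CSF1, 0.543; median 0.04) and 0 of 11 in NASH-T over Con (median −0.01) and NASH-T over NASH (median −0.04).

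Of the genes of lipid-associated macrophages, 0 were higher and 6 lower of 11 in NASH over Con (median −0.59, beside 4.63% of all measured genes lower). In NASH-T over Con 0 were higher and 6 lower of 12 (median −0.45, beside 6.15% lower), and in NASH-T over NASH 2 were higher and 0 lower of 11 (median 0.37). The GPNMB-led subset 3 held 6.98%, 9.78% and 19.8% of macrophage-like cells in NASH-T, NASH and Con, and its part in these counts was not tested. GPNMB stood at 75.3, 14.9 and 156 CPM in NASH-T, NASH and Con, and LPL, the lipoprotein lipase gene, had a ratio of 0.398 for NASH over Con and 0.621 for NASH-T over Con. Recruited monocyte genes gave 0 higher and 2 lower of 6 in each comparison, FCN1 (0.590 for NASH over Con, 0.169 for NASH-T over Con, 0.287 for NASH-T over NASH) and VCAN (0.642, 0.317 and 0.494), with medians of −0.01, −0.20 and −0.30. FCN1 was a leading gene of subset 7 (0.403%, 5.98% and 11.8% of macrophage-like cells in NASH-T, NASH and Con). VCAN led subset 6 (7.92%, 8.15% and 2.91%). Both subsets held MSR1 (1807 and 1567 CPM) and TIMD4 (909 and 1338 CPM). Their part in these counts was not tested. Dendritic cell genes gave 2 higher and 0 lower of 7 in NASH over Con (IDO1, 2.35, and CLEC9A, 1.97; median 0.09), 0 higher and 2 lower in NASH-T over Con (FLT3, 0.384, and IDO1, 0.481; median −0.54) and 0 higher and 4 lower in NASH-T over NASH (median −0.83). CLEC9A stood far higher in endothelial-like cells, at 1346 and 1038 CPM in NASH and Con, against 12.7 and 6.46 CPM in macrophage-like cells. The source of its UMIs in macrophage-like cells was not tested. IDO1 was also among the leading genes of subset 3.

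Endotoxin recognition genes gave 1 higher of 8 in NASH over Con (LBP, 1.95, from 25 and 16 UMIs; median 0.09), 2 higher of 9 in NASH-T over Con (TLR4, 1.85, and TLR2, 1.53; median 0.26) and 1 higher of 8 in NASH-T over NASH (TLR4, 1.56; median 0.29), with 0 lower in each. LBP stood at only 7.75 and 3.97 CPM in macrophage-like cells of NASH and Con, and at 20.8 and 4.15 CPM in endothelial-like cells. The source of these UMIs was not tested. Macrophage cytokines gave 0 higher and 1 lower of 8 in NASH over Con (CXCL10, 0.575; median 0.05), 3 higher and 0 lower of 9 in NASH-T over Con (CXCL8, 3.27, IL10, 1.67, and TNF, 1.58; median 0.33) and 3 higher and 0 lower of 9 in NASH-T over NASH (IL12B, from 19 UMIs and 1 UMI, CXCL8, 5.43, and CXCL10, 1.66; median 0.37). Hepatocyte transcripts, read in macrophage-like cells as a measure of free RNA, gave 3 higher and 0 lower of 13 in NASH over Con (FABP1, 4.53, HAMP, 2.77, and TTR, 1.52; median 0.19), 2 higher and 0 lower in NASH-T over Con (HAMP, 2.17, and FABP1, 1.65; median 0.05) and 0 higher and 2 lower in NASH-T over NASH (FABP1, 0.364, and APOC3, 0.660; median −0.19). The part of this free RNA in the macrophage levels of CD163 was not tested. With the T cell-like level of each library subtracted, the CD163 ratios were 0.49966 for NASH over Con and 0.606 for NASH-T over Con. That subtraction was chosen after seeing the data. It cannot show the part of free RNA, because T cell-like and macrophage-like cells carried unlike amounts of hepatocyte markers.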

How the data were processed

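Droplet single-cell RNA libraries of goat liver were read from the deposited matrices of UMI counts per gene and cell, made with Cell Ranger 7.0.0, per the submitters' processing notes (genome build not given in the sources used here). Receptor genes and gene lists were chosen with earlier results of these data known. Barcodes with fewer than 500 UMIs, fewer than 200 genes or over 20% mitochondrial UMIs were removed (2, 0 and 1 in NASH-T, NASH and Con), and Scrublet, with an expected rate of 0.06, marked 459, 342 and 284 doublets (4.90%, 3.92% and 3.79%), which were removed. Cells were clustered in scanpy 1.11.5 (2000 variable genes without the receptor genes, 30 principal components, 15 neighbours, Leiden resolution 0.8; 20 components and 0.5 for subsets) and named from 17 marker sets. UMIs were summed per class and library and divided by the class total, with exact Poisson intervals, exact conditional binomial intervals for ratios and exact binomial (Clopper-Pearson) intervals for shares. A count of 0 allows up to 3 counts. Named genes were the receptors, up to 4 genes of each list with the largest log2 ratio among those past the fold, the 5 most like each receptor and the leading genes of subsets. Genes named beside them for their known role, such as VSIG4, MERTK, AXL, HAVCR2, MRC1, HMOX1, SLC40A1, NR3C1 and ADAM17, were chosen after their values were seen. The ratio intervals were tested on simulated data. Alternatives were another doublet treatment, resolution, clustering per library, scaling, thinning, folds and UMI minimums.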

Additional observations from a re-analysis of the deposited data

Results flagged for a closer look

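CD163 had opposite directions in 2 cell classes for NASH-T over Con. Its ratio was 1.56 (1.53 to 1.60) in hepatocyte-like cells, where NASH-T was higher, and 0.623 (0.594 to 0.654) in macrophage-like cells, where NASH-T was lower. In cluster 1, the larger of the 2 macrophage-like clusters, it was 0.704, short of 1.5-fold. With 1 library per group the difference between the classes was not tested.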

How the results depend on the processing

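CD163 in macrophage-like cells was lower in NASH and in NASH-T than in Con, under every alternative run (0.473 to 0.626 and 0.606 to 0.704), and past 1.5-fold in each except NASH-T over Con in cluster 1 alone. With cluster 1 only, CD163 was 0.626 for NASH over Con, 0.704 for NASH-T over Con and 1.13 for NASH-T over NASH, TIMD4 was 1.13 for NASH over Con and 1.16 for NASH-T over Con, MSR1 was 0.941 for NASH-T over Con and 1.09 for NASH-T over NASH, and ADGRE1 was 0.706 for NASH-T over Con and 0.678 for NASH-T over NASH. With doublets kept, its ratios were 0.550 for NASH over Con and 0.661 for NASH-T over Con. At resolution 0.4, NASH over Con was 0.548 for CD163, 0.886 for MSR1 and 1.13 for ADGRE1, and NASH-T over NASH was 1.09 for MSR1, 1.01 for TIMD4 and 0.709 for ADGRE1. With each library clustered on its own, NASH over Con was 0.473 for CD163, 0.741 for MSR1, 1.07 for TIMD4 and 0.923 for ADGRE1, NASH-T over Con was 0.948 for MSR1 and 1.23 for TIMD4, and NASH-T over NASH was 1.32 for CD163, 1.28 for MSR1, 1.15 for TIMD4 and 0.849 for ADGRE1. With cells thinned to 1000 UMIs, NASH over Con was 0.476 for CD163 and 0.807 for MSR1, and NASH-T over NASH was 1.28 for CD163 and 1.21 for MSR1. With subset shares fixed, NASH over Con was 0.548 for CD163 and 1.06 for TIMD4, NASH-T over Con was 0.664 for CD163, 0.885 for MSR1 and 1.15 for TIMD4, and NASH-T over NASH was 1.06 for MSR1. Subsets 2 and 8 had hepatocyte and T cell transcripts among their leading genes. Without them, CD163 was 0.484 for NASH over Con and 1.31 for NASH-T over NASH. Subset 9 was kept there, though it carried 4992 CPM of hepatocyte markers, against 3668 CPM in subset 2. In hepatocyte-like cells CD163 for NASH over Con was 1.06 with the median gene scaled to 1, 1.01 with cells weighted equally, 1.01 thinned and 0.869 in clusters 0, 2 and 11 only. NASH-T over Con was 1.67 with the median gene scaled to 1 and 1.502 thinned, and NASH-T over NASH was 1.53 with cells weighted equally, 1.48 thinned, short of 1.5-fold, and 1.81 in clusters 0, 2 and 11 only. The causes of these moves were not tested. Keeping cluster 1 only, leaving out subsets 2 and 8, subtracting the T cell-like level and keeping clusters 0, 2 and 11 only were chosen after seeing the data. The other 174 recomputed ratios and gene counts stayed inside the counting interval or within 1.5 times. No ratio past 1.5-fold changed direction, while 3 short of it crossed 1: ADGRE1 (0.923 to 1.13) and hepatocyte-like CD163 (0.869 to 1.06) for NASH over Con, and MSR1 for NASH-T over Con (0.885 to 1.01). With a fold of 2 or at least 50 UMIs, 32 of the gene list counts moved by over 1.5 times and 148 did not. All 24 recomputed shares of cells with a UMI moved on thinning, and of the levels by class 12 moved and 84 did not. Intervals cover counting error only, and PCR or pool effects are not in them. No paired analysis was possible because each group had 1 library, and for the same reason no replicate could be left out.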
